A study of Mus musculus with 30 samples.

Results

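The response of mouse embryonic stem cells to loss of the cohesin cofactors PDS5A and PDS5B was compared with their response to loss of the cofactor WAPL. The comparison rests on 12 of the series' 30 RNA-seq libraries, chosen by their labels as the untreated and auxin-treated libraries of 2 degron lines, with 3 libraries in each of 4 groups. The quantity tested is the PDS5AB effect (auxin minus untreated, in the PDS5AB line) minus the WAPL effect (auxin minus untreated, in the WAPL line), on the log2 scale, and is called the difference in effects. A positive difference means that a transcript rose more, or fell less, after PDS5AB loss.

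Both lines derive from E14 cells, which are male mouse embryonic stem cells of 129P2/Ola background. The PDS5AB line (EN293.1) has the genotype PDS5A-AID, PDS5B-AID with Tir1, and the WAPL line (CMW184) carries WAPL-AID with Tir1. AID is a short auxin-inducible degron, a tag that Tir1, a plant F-box protein, targets for proteasomal destruction when auxin is present. Untreated groups of each line received no drug, and treated groups received auxin at 500 µM for 24 h. Cells grew on gelatin in serum medium with leukemia inhibitory factor, the MEK inhibitor PD0325901 and the GSK3 inhibitor CHIR-99021, so the untreated cells were exposed to both inhibitors too. Each protein loss is represented by 1 line, so the effect of a protein and of its line cannot be told apart. No label says that the 3 libraries of a group came from separate cultures, so the p-values measure the spread between these libraries, which may be technical. The other lines used beside these are TIR1, which carries Tir1 without a degron and received the same auxin, and the combined lines PDS5AB-NIPBL and WAPL-NIPBL. The combined lines also carry NIPBL-FKBP and RAD21-Halo and received 500 nM dTAG-13 with the auxin, so they lose NIPBL as well.

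Cohesin is a ring-shaped complex that extrudes chromatin into loops, which CTCF bound to DNA can stop, and that holds sister chromatids together. NIPBL drives extrusion, while PDS5A and PDS5B bind the ring at the site NIPBL uses and take part both in pausing and in release of cohesin. WAPL opens the ring and takes cohesin off chromatin, and it acts with the PDS5 proteins in doing so. In embryonic stem cells such loops connect enhancers with promoters and hold clusters such as the protocadherins and the Hox genes in order.

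Total counts of the 12 libraries ran from 23764021 to 35410075 fragments, and Pearson's r of log2 CPM between replicates of any of the 4 groups was at least 0.9877. The lines carried separate ranges of library numbers, 1 to 19 for PDS5AB and 29 to 42 for WAPL, so levels in one line against the other cannot be told apart from this range, whereas each effect lies within 1 range. The label of embryonic stem cell fitted the markers: 12 naive pluripotency genes summed to between 3200 and 5420 CPM per library (CPM are counts scaled to the size of a library, by TMM), while 16 primitive streak and mesoderm genes summed to between 64.8 and 139. Neural genes (12 tested) summed to 185 to 210 CPM. Fibroblast genes summed to 259 to 876 CPM, nearly all of it Vim, which other cell types also express. Of 14 fibroblast markers, 6 did not pass the filter on low counts (Col3a1, Dcn, Lum, Postn, S100a4 and Twist2), and none of these exceeded 9 counts in any of the 12 libraries.

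The transcripts of the tagged genes did not separate the effects. Degrons destroy protein, so these values check the samples only in part. Pds5a fell by 0.46 ± 0.10 (log2, SE) under PDS5AB loss and by 0.36 ± 0.10 under WAPL loss, and the difference in effects was -0.11 (adjusted p = 0.693). Pds5b differed by -0.07 (adjusted p = 0.746) and Wapl by -0.14 (adjusted p = 0.442) between the effects. Levels did differ between the lines: untreated Pds5a was 83.4 ± 8.40 CPM (SD, n = 3) in the PDS5AB line and 238 ± 21.5 in the WAPL line, and untreated Wapl was 282 ± 14.3 and 176 ± 12.2. Rad21, the cohesin kleisin subunit, fell in both lines, by 0.41 and by 0.24, with an adjusted p of 0.193 for the difference and 0.0129 when untreated and treated libraries of the same number were paired.

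Loss of PDS5A and PDS5B and loss of WAPL gave different responses in 2481 of 19868 tested genes (12.5%), by edgeR's quasi-likelihood F-test with Benjamini-Hochberg adjustment over all tested genes at 0.05. All adjusted p-values below come from this test, fitted without pairing of libraries unless pairing is named. The difference was positive in 1466 genes (7.38% of those tested) and negative in 1015 (5.11%), and it was at least 2-fold in 741. The separate effects were called in 9134 genes (46.0%) in the PDS5AB line and 6517 (32.8%) in the WAPL line. In PDS5AB 25.8% of all tested genes rose and 20.2% fell, and in WAPL 17% rose and 15.8% fell. When same-numbered untreated and treated libraries of a line were paired, 5423 genes were called (27.3%), with a positive difference in 14.3% and a negative one in 13% of all tested genes, and 2480 of the 2481 were among them with the same sign. The excess of positive over negative calls was not stable: 59.1% were positive, but 48.4% were without the third treated WAPL library.

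The called genes were sorted by which effect was itself called. In 1083 genes only the PDS5AB effect was called, 658 of them rising and 425 falling. For 973 of these the 95% interval of the WAPL effect lay within 2-fold in either direction. In 549 genes only the WAPL effect was called, 210 rising and 339 falling, and for 486 of these the PDS5AB effect was bounded within 2-fold. Both effects were called with opposite signs in 230 genes: 163 rose with PDS5AB loss and fell with WAPL loss, and 67 did the reverse. Both were called with the same sign in 421 genes with the larger size in PDS5AB and in 172 with the larger size in WAPL, and neither effect was called in 26. With pairing these classes held 1895 genes (PDS5AB alone), 951 (WAPL alone) and 534 (opposite signs).

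**Figure D1:**
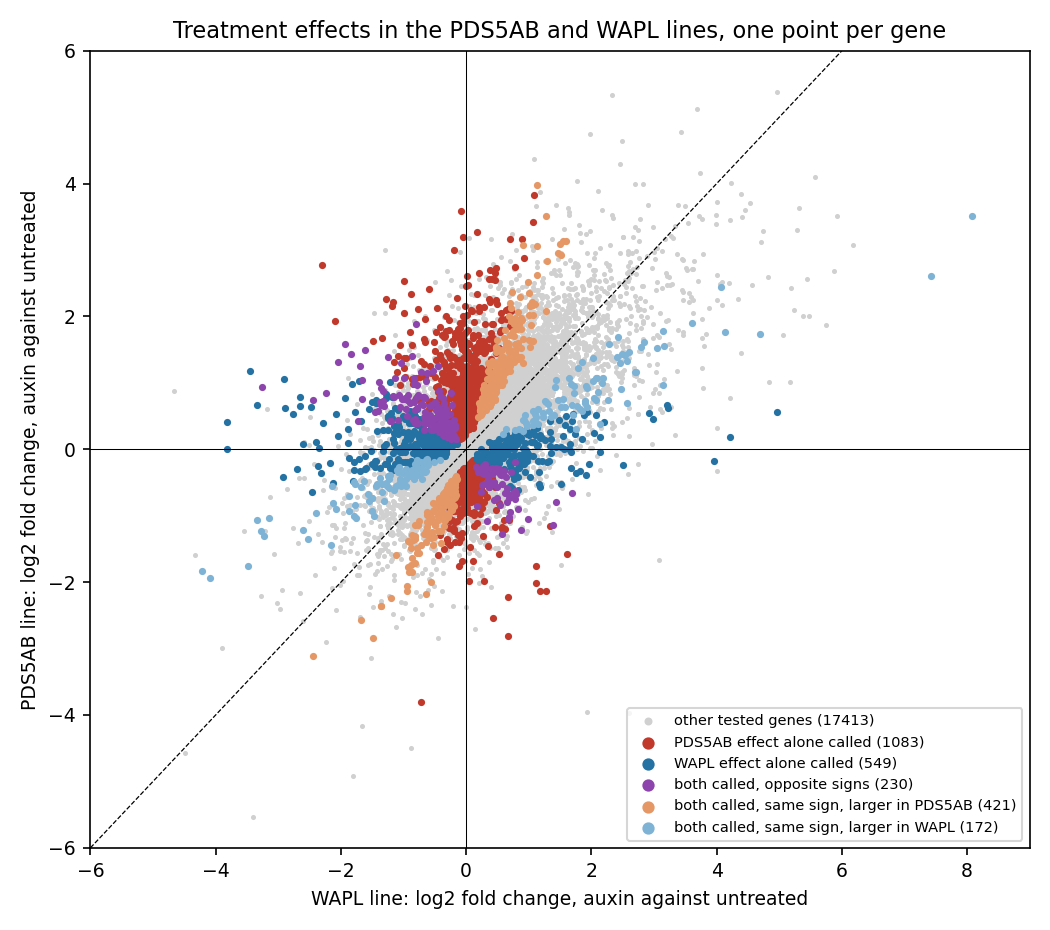
Log2 fold change of every tested gene in the WAPL line (horizontal) and the PDS5AB line (vertical), auxin against untreated, with 3 libraries a group. Colours mark the classes of genes whose difference in effects was called, with their number, grey holds all other tested genes, the dashed line marks equal effects, and 2 points lie outside the axes. The 1083 genes with only the PDS5AB effect called lie along the vertical axis and the 549 with only the WAPL effect called along the horizontal one.

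The genes described first are those that averaged 50 counts or more and had the largest differences in their class, with no overlap of treated and untreated CPM where a change was called. In the one-line classes the 95% interval of the other effect lay within 2-fold. Pseudogenes and genes with Gm or Rik symbols were passed over. Larger differences exist among genes of lower count. Among genes so limited with only the PDS5AB effect called, Krtdap, which encodes a secreted protein of keratinocyte differentiation, had the largest positive difference. The gene lies at chr7:30787896-30791097 (GRCm38, plus strand, as in the deposited annotation). In the PDS5AB line it measured 0.742, 0.661 and 0.911 CPM in the untreated libraries and 4.77, 6.89 and 7.09 after auxin. In the WAPL line it measured 0.741, 0.529 and 0.984 CPM untreated and 0.690, 0.704 and 0.574 treated. The treated PDS5AB libraries stood above all 9 others, which overlapped. Its effects were 3.01 ± 0.24 (log2, SE) in PDS5AB and -0.19 ± 0.30 in WAPL (95% interval -0.80 to 0.42), with a difference of 3.19 ± 0.39 (adjusted p = 1.32e-06).

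Plet1, a surface protein first found in placenta (chr9:50494525-50505482, plus strand), had its high level in the same libraries. Its untreated PDS5AB libraries held 8.19, 5.79 and 7.09 CPM and the treated ones 32.3, 24.8 and 27.1. The WAPL libraries held 7.41, 5.43 and 7.36 CPM before and 7.78, 4.96 and 7.14 after auxin. Here too only the treated PDS5AB libraries left the common range, and the difference was 2.03 ± 0.21 (adjusted p = 1.12e-07). Slc38a3, a glutamine transporter, rose by 2.03 ± 0.22 in PDS5AB, from 2.5, 2.02 and 2.84 CPM to 10.9, 8.82 and 10.4, beside an effect of 0.02 ± 0.25 in WAPL. Rcsd1, whose protein binds the actin-capping protein CapZ, rose by 1.82 in PDS5AB against -0.13 in WAPL. Meioc, needed for meiotic prophase in germ cells, rose from 14.5 ± 2.36 to 63.2 ± 8.02 CPM in PDS5AB. Its WAPL effect was -0.46 ± 0.21, not called here (adjusted p = 0.0833), but called at -0.49 with paired libraries (adjusted p = 0.000684), which places it among the genes of opposite sign. The WAPL effect was called in 5 of 18 alternatives.

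Of genes that fell with only the PDS5AB effect called, Notumos, Etv1 and Notum had the largest differences under the same limits. Evx1, with a mean of 16.8 counts, had a larger one (-3.19). Notum encodes a secreted enzyme that inactivates Wnt proteins by removing their lipid (chr11:120653788-120661175, minus strand). It measured 17.6, 18.3 and 16.9 CPM in untreated and 4.77, 6.79 and 4.87 CPM in treated PDS5AB libraries. In the WAPL line it measured 22.6, 23.1 and 23.3 CPM untreated and 24.6, 24.0 and 25.6 treated. All treated PDS5AB libraries lay far below the other 9. The difference was -1.78 ± 0.16 (adjusted p = 7.44e-09). Notumos overlaps Notum on the other strand and counting ignored strand, so its fall from 3.89 ± 0.55 to 0.98 ± 0.23 CPM cannot be told apart from that of Notum.

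Etv1, an ETS-family transcription factor downstream of ERK signalling (chr12:38779380-38870484, plus strand), held 26.6, 27.4 and 27 CPM in untreated and 8.58, 11 and 9.96 CPM in treated PDS5AB libraries. The WAPL libraries held 16.8, 16.0 and 16.6 CPM before and 20, 24.6 and 18.4 after auxin, so the groups of the WAPL line did not overlap either. The WAPL effect of 0.35 ± 0.14 was not called (adjusted p = 0.0578) but was in 9 of 18 alternatives, among them the one with paired libraries (adjusted p = 0.00898), so its class as a gene of PDS5AB loss alone is not stable. The difference was -1.80 ± 0.20 (adjusted p = 5.02e-07). Mc5r, a melanocortin receptor, fell by 1.76 in PDS5AB beside a WAPL effect of -0.12. Ptprd, a receptor tyrosine phosphatase, fell by 1.17 beside a WAPL effect of 0.46 that was not called.

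Between the degron lines, Lef1 rose in the WAPL line only, and it also had a called rise in the TIR1 control line, with values given after those of the degron lines. It encodes a transcription factor that acts with β-catenin at Wnt target genes (chr3:131110471-131224356, plus strand). In the WAPL line Lef1 measured 7.14, 6.77 and 5.47 CPM untreated and 29.7, 29.8 and 26.3 treated. In the PDS5AB line it measured 11.6, 9.26 and 9.22 CPM untreated and 13.3, 8.53 and 7.48 treated. The treated WAPL libraries exceeded every other library, and the PDS5AB groups overlapped. The effects were 2.14 ± 0.18 in WAPL and -0.04 ± 0.18 in PDS5AB (95% interval -0.41 to 0.33), with a difference of -2.18 ± 0.26 (adjusted p = 1.05e-06).

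Ror1, a receptor tyrosine kinase of the Wnt5a pathway (chr4:100095791-100444765, plus strand), showed how fold and level can part. It measured 0.649, 0.317 and 0.472 CPM in untreated and 1.65, 2.05 and 2.00 CPM in treated WAPL libraries. In the PDS5AB line it measured 3.03, 2.05 and 3.06 CPM untreated and 2.20, 2.35 and 2.42 treated. Only the untreated WAPL libraries stood apart, below the rest, so the treated WAPL cells came near the level of PDS5AB cells. The effects were 1.97 ± 0.26 and -0.23 ± 0.21 (difference adjusted p = 3.92e-05). Car3, a carbonic anhydrase, followed the same course, rising from 1.22 ± 0.48 to 5.00 ± 1.08 CPM in WAPL beside 3.91 ± 1.10 and 4.63 ± 1.26 in PDS5AB. Prr19, with a role in meiotic crossover formation, rose by 1.68 in WAPL, from 3.09, 3.53 and 3.7 CPM to 13.4, 8.86 and 10.8, beside -0.04 in PDS5AB. Zfpm2, a cofactor of GATA factors, rose by 2.14 in WAPL against 0.19, a difference no longer called without the first untreated PDS5AB library.

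Cxcl14, a chemokine, had the largest difference among the genes so limited that fell with only the WAPL effect called (chr13:56288643-56296551, minus strand). The untreated WAPL libraries held 4.14, 4.41 and 4.45 CPM and the treated ones 0.728, 0.734 and 0.665. The PDS5AB libraries held 4.59, 5.32 and 4.91 CPM before and 5.82, 4.97 and 4.93 after auxin. Before treatment the lines were nearly level, and only the treated WAPL libraries were low. The effects were -2.60 ± 0.16 and 0.08 ± 0.13, with a difference of 2.69 ± 0.21 (adjusted p = 4.33e-10).

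Ffar3, a receptor for short-chain fatty acids, fell from 4.16 ± 0.44 to 0.78 ± 0.19 CPM in WAPL and measured 1.26 ± 0.34 and 1.35 ± 0.14 in PDS5AB. Lix1 (chr17:17402672-17459387, plus strand) fell from 6.73, 5.29 and 6.5 CPM to 1.61, 1.44 and 1.45 in the WAPL line. Its PDS5AB libraries held 1.89, 2.31 and 1.71 CPM before and 2.13, 2.78 and 1.89 after auxin. For both genes the untreated WAPL libraries were the high group, and the other 3 groups lay close together. Alox5ap, needed for leukotriene synthesis, and Hpca, a neuronal calcium sensor, fell by 1.25 each in WAPL. Their PDS5AB effects were 0.48 and 0.47, not called here but called with paired libraries (adjusted p = 0.0467 and 0.0180), and in 2 and 4 of 18 alternatives in all.

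**Figure D2:**
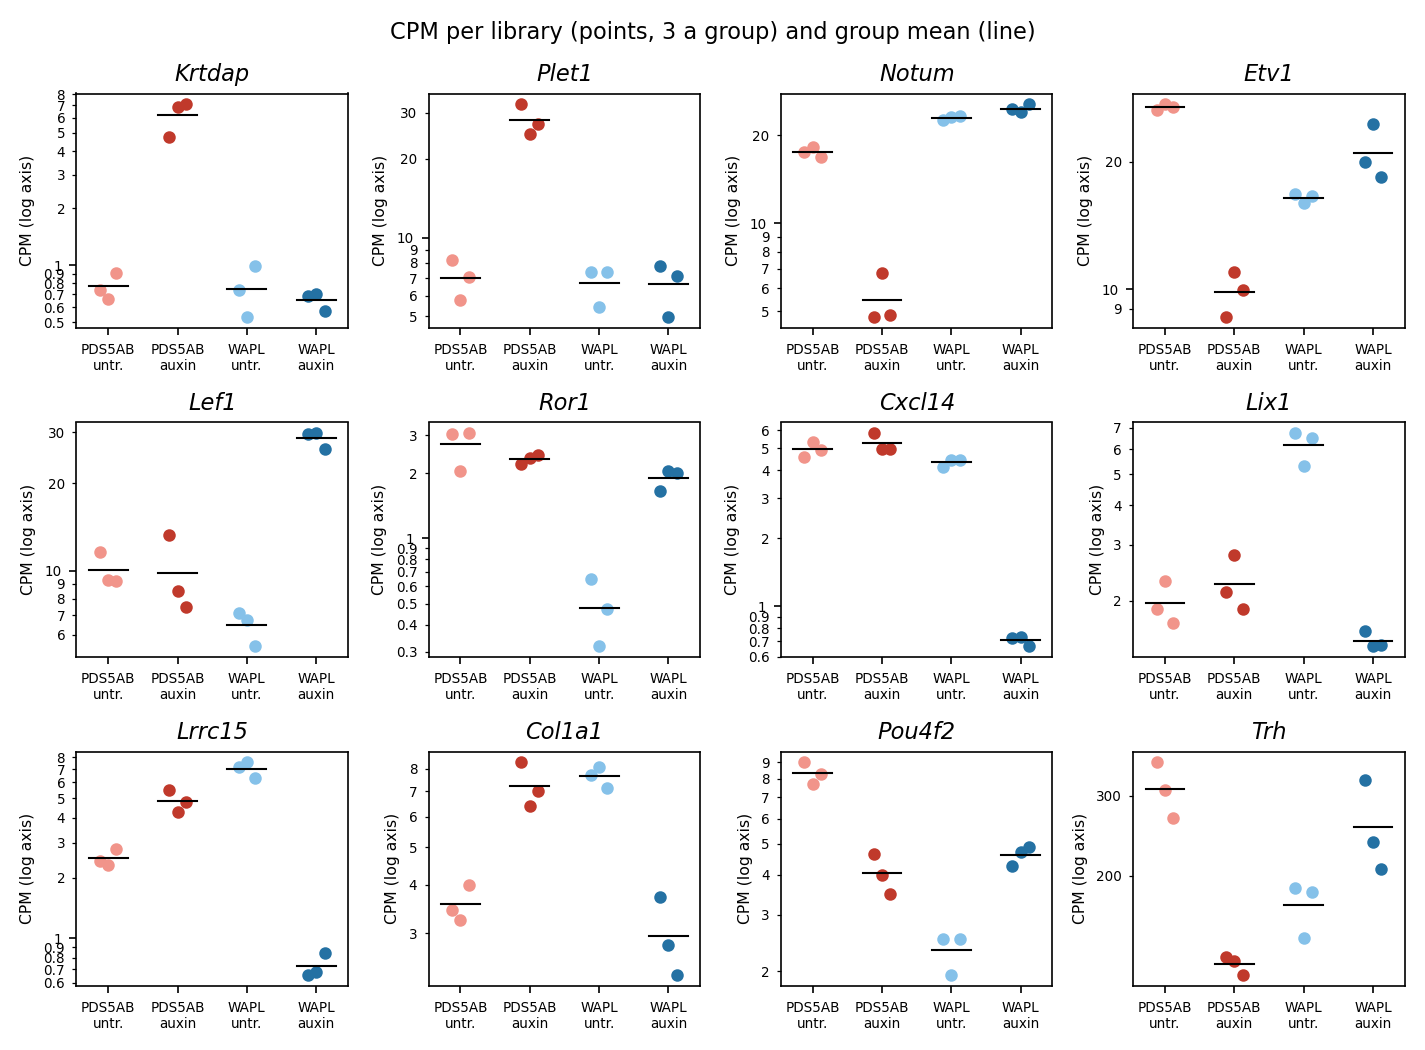
CPM of 12 genes in each of the 12 libraries on log axes, by line and treatment, with 3 points a group and a line at the group mean. The top row holds genes with only the PDS5AB effect called, the middle row genes with only the WAPL effect called and the bottom row genes called with opposite signs. Krtdap and Plet1 are high and Notum low in treated PDS5AB libraries alone, whereas Ror1 and Lix1 start from untreated WAPL levels that stand apart from the other groups.

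Among genes of 50 counts or more with opposite called effects, Lrrc15 had the largest difference. It encodes a membrane protein with leucine-rich repeats (chr16:30269302-30283256, minus strand). It rose from 2.43, 2.31 and 2.79 CPM to 5.48, 4.25 and 4.80 with PDS5AB loss. With WAPL loss it fell from 7.20, 7.58 and 6.30 CPM to 0.652, 0.675 and 0.847. Neither line's groups overlapped, which was a condition for naming a gene of this class. The effects were 0.94 ± 0.21 and -3.26 ± 0.24, with a difference of 4.21 ± 0.32 (adjusted p = 3.89e-10).

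Col1a1, the main chain of type I collagen (chr11:94936224-94953042, plus strand), rose from 3.44, 3.24 and 4.00 CPM to 8.32, 6.40 and 6.99 with PDS5AB loss. It fell from 7.72, 8.08 and 7.13 CPM to 3.72, 2.79 and 2.33 with WAPL loss. The groups did not overlap in either line, by the same condition, and the line with the lower untreated level was the higher one after treatment. The difference in Col1a1 effects was 2.40 ± 0.27 (adjusted p = 4.01e-07), and Col1a2, the partner chain, had a difference of 2.7 (adjusted p = 0.000704). Both are fibroblast markers as well. Over that list, 4 of 8 tested genes had a positive called difference and 1 (Vim, -0.93) a negative one, against 7.38% and 5.11% of all tested genes. The summed level of the list went from 337 to 428 CPM to 259 to 306 in PDS5AB and from 515 to 656 CPM to 648 to 876 in WAPL. Gata2, a GATA transcription factor, rose from 4.82 ± 0.85 to 8.17 ± 2.72 CPM with PDS5AB loss and fell from 11.9 ± 2.91 to 3.76 ± 0.47 with WAPL loss. Its PDS5AB rise was not called without the first treated or the third untreated PDS5AB library.

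In the reverse direction Trh, the precursor of thyrotropin-releasing hormone (chr6:92242061-92244650, minus strand), fell with PDS5AB loss and rose with WAPL loss. It measured 355, 308 and 268 CPM in untreated and 133, 130 and 121 CPM in treated PDS5AB libraries. It measured 188, 146 and 184 CPM in untreated and 324, 237 and 207 CPM in treated WAPL libraries. Groups separated in both lines, again by the condition for naming, though the gap in WAPL was small. The effects were -1.28 ± 0.14 and 0.57 ± 0.13, with a difference of -1.85 ± 0.19 (adjusted p = 1.03e-07). Pou4f2, a POU-domain factor of sensory neurons, went from 8.33 ± 0.65 to 4.05 ± 0.59 CPM in PDS5AB and from 2.33 ± 0.34 to 4.63 ± 0.33 in WAPL. Crocc2, related to a ciliary rootlet protein, fell by 0.79 in PDS5AB and rose by 1.44 in WAPL.

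Where both losses moved a gene the same way, Chit1, a chitinase, rose further with PDS5AB loss, from 1.35 ± 0.44 to 15.4 ± 1.36 CPM against 0.83 ± 0.28 to 2.04 ± 0.41 with WAPL loss. Gli2, a transcription factor of Hedgehog signalling, fell from 71.3, 58.3 and 64.2 CPM to 16.4, 15.6 and 16.6 in PDS5AB. In the WAPL line Gli2 fell from 117, 121 and 125 CPM to 80.0, 80.1 and 86.3. All 4 groups were distinct, and the effects of -1.99 ± 0.08 and -0.56 ± 0.07 differed by -1.44 ± 0.10 (adjusted p = 1.17e-10). Slc6a15, a neutral amino acid transporter, fell by 2.18 and 0.65, and Tmem200b rose by 3.08 and 0.91. The WAPL rise of Tmem200b was called in 14 of 18 alternatives.

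Larger effects of WAPL loss were seen for Scn3a, a voltage-gated sodium channel, which fell from 6.65 ± 0.70 to 0.38 ± 0.06 CPM in WAPL and from 3.32 ± 0.86 to 0.86 ± 0.26 in PDS5AB. Igfbp7, an IGF-binding protein, fell from 5.35 ± 0.24 to 0.56 ± 0.11 CPM in WAPL and from 1.40 ± 0.25 to 0.56 ± 0.23 in PDS5AB, so that both lines ended at one level. Hs6st2, a heparan sulfate sulfotransferase, rose from 0.12 ± 0.07 to 3.13 ± 0.18 CPM in WAPL and from 1.05 ± 0.35 to 3.50 ± 0.85 in PDS5AB. Ighm, the immunoglobulin mu chain, had at most 1 count in any untreated WAPL library. Its treated level there of 4.32 CPM was at least 40.9-fold above the floor of 3 counts a library, beside a rise from 0.47 ± 0.07 to 5.48 ± 0.76 CPM in PDS5AB. As ratios, levels of Igfbp7, Hs6st2 and Ighm lay closer between the lines after treatment than before it, whereas Scn3a went from higher in WAPL to higher in PDS5AB.

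Levels before treatment often differed between the lines. Among the 2481 called genes, untreated lines differed in 1376 (55.5%), against 39.2% of all tested genes, and treated lines in 1858 (74.9%), against 46.1%. Where the untreated lines differed, the difference in effects had the opposite sign in 1046 of 1376 genes (76.0%), and the sign was opposite in 65.4% of all tested genes whose untreated lines differed. The untreated libraries enter both quantities, which are therefore not independent. In 592 called genes (23.9%) the lines differed before treatment and not after it, against 13% of all tested genes. In 1074 (43.3%) they differed after treatment and not before it, against 19.9%. The first kind made up 29.9% of genes with only the WAPL effect called and 23.0% of those with only the PDS5AB effect called, which was not tested.

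The same difference was measured in other libraries, the combined lines, where NIPBL was lost too. There 72 genes were called (0.362%), and 42 of them were among the 2481 called here, 38 of the 42 with the same sign. Of the 2481 genes, 75.3% had the same sign in the combined lines, against 59.9% of all tested genes. Across the 2481 genes Pearson's r between the 2 differences was 0.338 and Spearman's rank correlation 0.457. These are descriptions across genes, which share libraries and are not independent. Pcsk6, a proprotein convertase that processes Nodal, was called in both settings, with a difference of 0.36 in the single-cofactor lines (adjusted p = 0.0118) and 0.51 in the combined lines (adjusted p = 0.0111). The first of these was lost without the second untreated or the third treated WAPL library, and when the 12 libraries were fitted alone. Btg2, a p53 target that slows the cell cycle, was called in both too, with 0.83 and 0.60 (adjusted p = 4.68e-05 and 0.0331).

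Auxin alone changed 3962 genes (19.9%) in the TIR1 line, whose treated libraries carry numbers apart from its untreated ones. Of the genes with only the PDS5AB effect called, 318 (29.4%) were called in TIR1, and of those with only the WAPL effect called, 177 (32.2%). The share was 19.9% of all tested genes and 33.6% of all genes with a called difference. In TIR1, 283 of the 318 moved in the direction of their PDS5AB effect, and 76 of the 177 in that of their WAPL effect. Lef1 rose by 2.09 ± 0.24 in TIR1 (adjusted p = 2.47e-07), as in the WAPL line. T (brachyury), a primitive streak factor and Wnt target, rose by 2.02 ± 0.23 in TIR1 and by 1.48 ± 0.18 in WAPL (adjusted p = 1.91e-07 and 1.95e-07), with 0.43 ± 0.21 in PDS5AB (adjusted p = 0.0916). For Lef1 and T, then, the PDS5AB line was the one without a called rise under auxin, though T had one without the second untreated PDS5AB library. Rnf43, a ubiquitin ligase that removes Wnt receptors, rose by 1.63 ± 0.24 in PDS5AB and 1.62 ± 0.27 in TIR1, and measured 0.45 ± 0.28 in WAPL (adjusted p = 0.235).

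Notum showed no called TIR1 effect (0.10 ± 0.10, adjusted p = 0.553), nor did Cxcl14 (0.02 ± 0.13), Plet1 (-0.04 ± 0.15) or Slc38a3 (-0.29 ± 0.26). Krtdap rose by 1.17 ± 0.23 in TIR1, less than in PDS5AB. Cyp1a1, a target of the aryl hydrocarbon receptor (AHR), rose by 7.24 in TIR1, 3.71 in PDS5AB and 4.53 in WAPL, and the TIR1 effect was not tested against the others. Its difference in effects was -0.82 (adjusted p = 0.102), and that of Cyp1b1 was -1.48 (adjusted p = 0.0853). Ahrr, the AHR repressor, rose by 2.20 in WAPL and measured 0.41 in PDS5AB, a called difference of -1.79 (adjusted p = 0.0219). Over the 7 tested AHR targets, 1 difference was positive and 1 negative, beside 7.38% and 5.11% of all tested genes. The negative one, of Ahrr, was lost without the second untreated PDS5AB or the first untreated WAPL library. The part of auxin in Lef1, T and Ahrr was not tested within the degron lines.

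**Figure D3:**
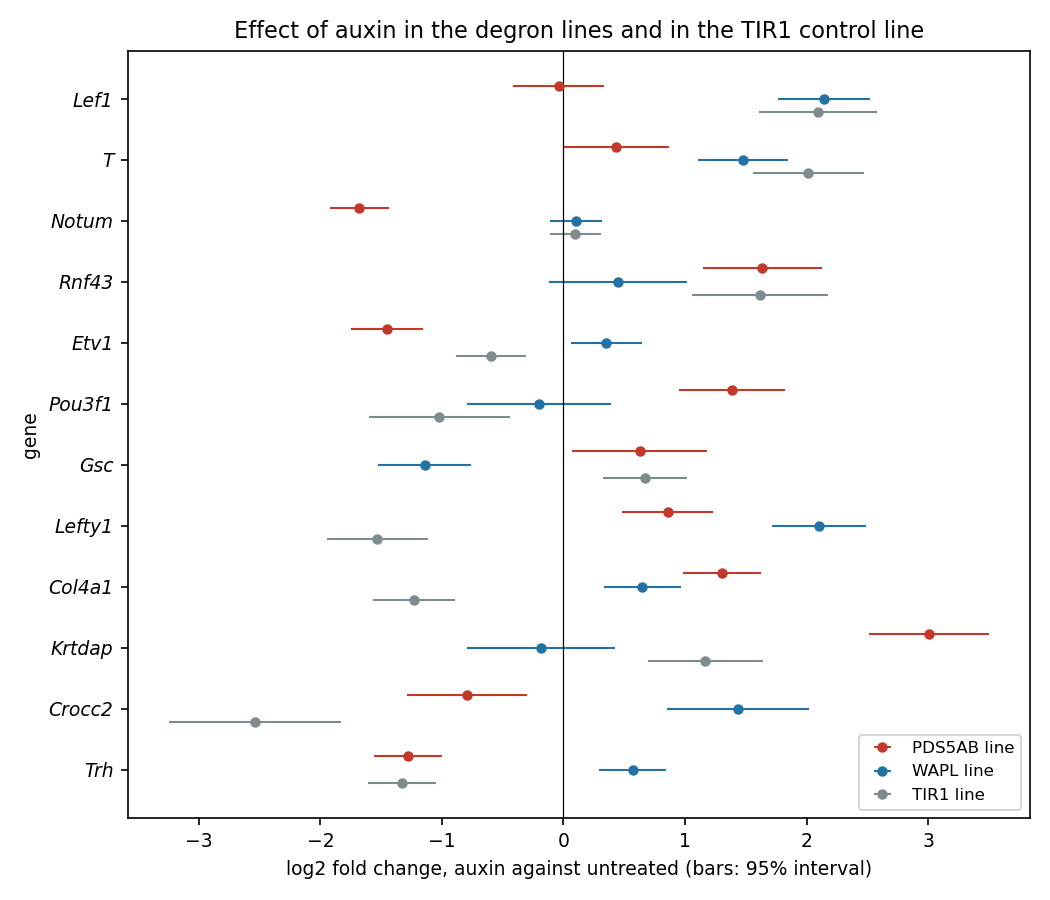
Log2 fold change after auxin in the PDS5AB, WAPL and TIR1 lines for 12 genes, with bars for 95% intervals and 3 libraries in each group. Lef1 sits near the same value in WAPL (2.14) and TIR1 (2.09) and near 0 in PDS5AB, T sits at 1.48 in WAPL and 2.02 in TIR1, and Notum is low in PDS5AB alone.

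Naive pluripotency genes fell in both lines, and 5 of them, Nr0b1, Nr5a2, Zfp42, Nanog and Esrrb, had the lower effect with PDS5AB loss. Of 12 naive pluripotency genes, 11 fell in PDS5AB and 9 in WAPL, against 20.2% and 15.8% of all tested genes. The difference was negative in 5 of the 12 and positive in 1, against 5.11% and 7.38% of all tested genes. The median difference of the list was -0.27, beside 0.00 over all tested genes, and pairing gave 7 negative and 3 positive, against 13% and 14.3%. The positive call was lost without the first treated PDS5AB library and with the 12 libraries alone. Nr0b1, an orphan receptor that binds OCT4, measured 107, 94.5 and 89.6 CPM in untreated and 53.6, 44.6 and 39.7 CPM in treated PDS5AB libraries. In WAPL it measured 82.7, 90.5 and 73.5 CPM untreated and 88.2, 66.0 and 69.7 treated. It was reduced in PDS5AB, with no overlap (a condition for naming it), while the WAPL groups overlapped (difference -0.93 ± 0.16, adjusted p = 0.00019).

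Nr5a2, a receptor that sustains Oct4 transcription, measured 96.9, 100 and 102 CPM untreated and 59.3, 57.4 and 59.6 treated in PDS5AB. In the WAPL line Nr5a2 measured 115, 118 and 114 CPM untreated and 105, 120 and 111 treated. Its WAPL effect was bounded tightly, at -0.05 (95% interval -0.16 to 0.07), and the difference was -0.72 ± 0.08 (adjusted p = 4.01e-07). Zfp42 (Rex1), a marker of the naive state, fell by 1.30 and 0.86. Nanog, chosen after its values were seen, fell by 0.73 and 0.30 (adjusted p for the difference 0.0147). Tbx3, chosen likewise, fell further in WAPL, by 0.83 against 0.42. Lin28a, an RNA-binding protein of the core list, fell by 1.04 in PDS5AB. Its WAPL effect of -0.27 was not called here but was with paired libraries (adjusted p = 0.000560) and in 3 of 18 alternatives in all, as a fall smaller than that in PDS5AB. Lin28a was the 1 called difference of 8 core genes, and pairing gave 5, all negative, against 12.5% and 27.3% of all tested genes called. Of the 8, all fell in PDS5AB and 5 in WAPL, against 20.2% and 15.8% of all tested genes. The called core differences numbered 3 without the third treated PDS5AB or the second treated WAPL library. They numbered 2 without the first untreated or the third treated WAPL library.

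Targets of p53, the transcription factor that answers DNA damage and other stress, differed in 1 direction: Perp, Btg2, Pmaip1, Gdf15, Cdkn1a, Plk2 and Mdm2 had the higher effect with PDS5AB loss. Of 18 targets, 15 rose and 1 fell in PDS5AB, 9 rose and 2 fell in WAPL, and 12 rose in TIR1. Of all tested genes, 25.8% rose and 20.2% fell in PDS5AB, and 17% and 15.8% in WAPL. In TIR1 2057 of the 19868 tested genes rose. Among the 18 targets the difference was positive in 7 and negative in none, with a median of 0.28, and pairing gave 13 and none. Over all tested genes 7.38% were positive, and 14.3% with pairing. The count fell to 4 without the third treated PDS5AB library and was 5 with the 12 libraries alone. Perp, a membrane protein linked to p53-dependent death, held 44.9, 34 and 30.8 CPM in untreated and 93.9, 83.9 and 84.3 CPM in treated PDS5AB libraries. In WAPL Perp held 27.4, 22.9 and 27.4 CPM before and 29.3, 24.8 and 29.7 after auxin. Only the treated PDS5AB libraries were raised, and the difference was 1.15 ± 0.18 (adjusted p = 5.18e-05).

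Btg2 rose from 87.2 ± 11.8 to 198 ± 7.05 CPM in PDS5AB and from 96.7 ± 9.28 to 123 ± 8.23 in WAPL. Pmaip1 (Noxa), a BH3-only death protein, rose by 1.17 and 0.37, with a difference of 0.80 (adjusted p = 0.00134), and its WAPL rise was called in 15 of 18 alternatives. Cdkn1a (p21) and Mdm2, named after their values were seen, had differences of 0.61 (adjusted p = 0.000536) and 0.27 (adjusted p = 0.0257), and that of Mdm2 was lost in 12 of 18 alternatives. Plk2 lost its call in 9 of 18. Cdkn1a rose in TIR1 too, by 0.62, beside 0.74 in PDS5AB and 0.13 in WAPL. In the combined lines 3 of the 18 differences were called, all positive.

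Genes of amino acid synthesis, import and tRNA charging that ATF4 controls fell in both lines, and Psat1, Aldh18a1, Sars, Phgdh and Atf4 itself were among those that fell further with PDS5AB loss. ATF4 is the transcription factor that answers amino acid shortage and endoplasmic reticulum stress. Of 31 genes, 23 fell and 2 rose in PDS5AB, 21 fell and 4 rose in WAPL, and 21 fell in TIR1. Of all tested genes, 20.2% fell and 25.8% rose in PDS5AB, and 15.8% and 17% in WAPL. In TIR1 1905 of the 19868 tested genes fell. Among the 31 genes the difference was negative in 10 and positive in 2, with a median of -0.25, and pairing gave 16 and 5. Over all tested genes 5.11% were negative and 7.38% positive, and 13% and 14.3% with pairing. The 2 positive calls, of Ddit4 and Slc1a4, were both lost without the first untreated, the first treated or the third treated PDS5AB library and without the second untreated or the third treated WAPL library. The negative calls of Phgdh, Sars and Atf4 were lost in 7, 3 and 2 of 18 alternatives, and the negative count was 7 at the lowest. Slc7a3, a cationic amino acid transporter, held 87.0, 102 and 101 CPM in untreated and 10.1, 11.9 and 11.5 CPM in treated PDS5AB libraries. In WAPL Slc7a3 held 88.2, 92.0 and 84.5 CPM before and 13.8, 19.8 and 14.8 after auxin. Both falls were large and the treated groups lay close, with a difference of -0.67 ± 0.18 (adjusted p = 0.0140) that was lost without the second treated WAPL library. Cth, which makes cysteine, measured 0.43 ± 0.10 in WAPL, where it rose, and -0.25 ± 0.10 in PDS5AB, not called here but called as a fall in 10 of 18 alternatives (with pairing, adjusted p = 5.96e-05). Ddit4, an inhibitor of mTORC1, rose by 1.38 and 0.60, and its difference was lost without any of 7 libraries.

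The promoters of 10 of the 26 listed genes with a RefSeq promoter (GRCm38.p6, 250 bases before to 50 after the start) held the letters TGATGNAA, on either strand, which ATF4 dimers recognise. This is 38.5%, against 2.32% of the tested genes' promoters and 4.06% of all promoters in that table. The genes were listed as targets of ATF4, so this share does not bear on the difference in effects. The letters stood in 2.35% of promoters of genes with only the PDS5AB effect called and 2.79% with only the WAPL effect called. The 3 promoters with a match whose gene had a called difference are printed, because they are the members with both the letters and a call. Gars and Aars charge glycine and alanine onto their tRNAs, and Slc1a4 imports neutral amino acids. Each is given 5′ to 3′ on the strand of its gene, with the matches in capitals (TTTCATCA and TTGCATCA are the motif read on the other strand).
Gars, chr6:55037751-55038050, plus strand: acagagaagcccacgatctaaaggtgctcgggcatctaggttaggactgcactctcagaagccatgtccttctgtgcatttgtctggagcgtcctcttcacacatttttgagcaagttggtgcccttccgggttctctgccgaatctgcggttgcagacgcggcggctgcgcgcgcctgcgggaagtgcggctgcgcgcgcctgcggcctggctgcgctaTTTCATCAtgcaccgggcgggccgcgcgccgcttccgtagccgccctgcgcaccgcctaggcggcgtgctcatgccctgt
Aars, chr8:111033592-111033891, plus strand: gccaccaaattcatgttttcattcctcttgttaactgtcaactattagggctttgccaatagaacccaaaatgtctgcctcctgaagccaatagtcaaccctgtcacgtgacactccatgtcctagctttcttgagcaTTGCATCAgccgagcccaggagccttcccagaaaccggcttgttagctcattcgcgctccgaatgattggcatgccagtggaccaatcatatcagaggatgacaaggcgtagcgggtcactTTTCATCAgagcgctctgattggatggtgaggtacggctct
Slc1a4, chr11:20332664-20332963, minus strand: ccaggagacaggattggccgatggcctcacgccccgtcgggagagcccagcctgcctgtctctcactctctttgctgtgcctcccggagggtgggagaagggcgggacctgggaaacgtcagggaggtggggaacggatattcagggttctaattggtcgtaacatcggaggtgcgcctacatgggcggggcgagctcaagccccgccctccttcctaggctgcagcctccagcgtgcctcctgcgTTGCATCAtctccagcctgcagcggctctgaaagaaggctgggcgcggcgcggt
Gars fell by 0.68 in PDS5AB and 0.31 in WAPL (difference adjusted p = 0.0103), and Aars, with 2 matches, by 0.72 and 0.32 (adjusted p = 0.0171). Slc1a4 fell by 0.90 in WAPL and 0.35 in PDS5AB (adjusted p = 0.0307), a difference lost in 9 of 18 alternatives, 8 of which leave out a library. Of the 10 genes with the motif, 8 fell in PDS5AB and 7 in WAPL, and of the 3 called differences that of Slc1a4 alone was positive. A match is a string of letters and not a measured site. The CTCF core motif stood in 3.59% of promoters of genes with only the PDS5AB effect called, 2.79% with only the WAPL effect called, 2.85% of all tested and 2.41% of all promoters. The AHR core GCGTG stood in 49.7%, 45.7%, 48.7% and 32.5% of the same sets. Both motifs were sought on both strands.

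Genes of the 2-cell-like state, which a small fraction of stem cells enters, rose in both lines, and 4 Zscan4 genes rose by a larger factor with WAPL loss from a lower level. Of 15 tested genes 13 rose in PDS5AB and 12 in WAPL, against 25.8% and 17% of all tested genes. The difference was negative in 4 of the 15 and positive in none, against 5.11% and 7.38% of all tested genes. The negative count was 1 without the first untreated, the second treated or the third treated PDS5AB library or the third untreated or the first treated WAPL library, and 2 without the second untreated WAPL library. Summed over the list, PDS5AB libraries held 38.7 to 57.1 CPM untreated and 93.4 to 128 treated, and WAPL libraries 2.91 to 5.81 and 16.7 to 21.6. The ranges of the 4 groups did not overlap, and untreated PDS5AB libraries exceeded treated WAPL libraries. Zscan4d, of a family that maintains telomeres, held 11.2, 8.96 and 8.55 CPM before and 28.7, 21.5 and 20.6 after auxin in PDS5AB, and 0.834, 0.317 and 0.315 before and 3.34, 2.76 and 2.33 after in WAPL. Its difference of -1.15 (adjusted p = 0.0341) was lost when any of 6 libraries was left out or the 12 libraries were fitted alone, and those of Zscan4c and Zscan4e when any of 7 and 6 were. Zscan4 copies are nearly identical and fragments matching several copies were not counted, so values of single copies are uncertain. In bulk RNA, more cells of a kind and more RNA per cell cannot be told apart.

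Of 16 trophoblast and simple epithelium genes, 5 differences were positive (Gata2, Gata3, Tfap2c, Krt19 and Krt8) and none negative (median 0.41), against 7.38% and 5.11% of all tested genes. Over the alternatives the list had 2 to 7 positive differences and 0 to 1 negative. The positive count was 2 without the third treated WAPL library and 3 with the 12 libraries alone. It was also 3 without the first treated or the third untreated PDS5AB library, and without the first untreated, the third untreated or the second treated WAPL library. Gata3 and Krt8 each lost their call in 8 of 18 alternatives. In PDS5AB 8 rose and 3 fell, against 25.8% and 20.2% of all tested genes, and in WAPL 5 rose and 5 fell, against 17% and 15.8%. Krt19, a keratin, rose from 20.6 ± 4.51 to 127 ± 20.9 CPM in PDS5AB and from 28.3 ± 5.61 to 61.9 ± 13.7 in WAPL, a difference lost without the second untreated or the third treated WAPL library. Tfap2c, an AP-2 factor, held 40.4, 40.2 and 43.2 CPM before and 27.9, 26.7 and 29.8 after auxin in PDS5AB. It held 84.0, 72.0 and 89.0 CPM before and 18.3, 18.2 and 18.7 after auxin in WAPL. It fell in both, far more in WAPL, from a higher untreated level to a lower treated one (difference 1.59 ± 0.11, adjusted p = 8.56e-11).

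**Figure D4:**
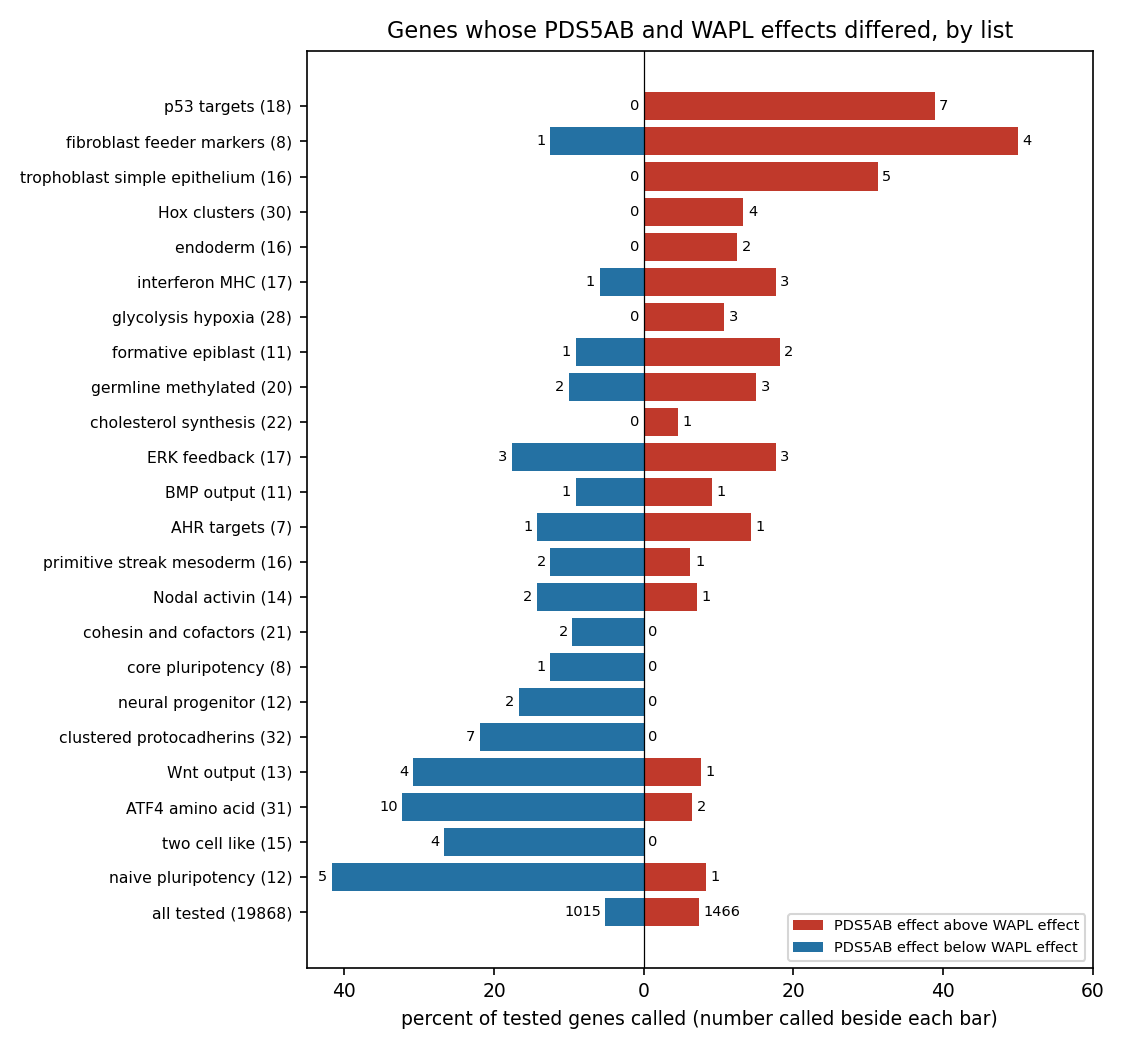
Percent of the tested genes of each list (number tested in brackets) whose difference in effects was called, to the right where the PDS5AB effect lay above the WAPL effect and to the left where it lay below, with the number of genes at each bar. The p53 list has 7 genes to the right and none to the left, and the ATF4 list 2 and 10, beside 1466 and 1015 of all 19868 tested genes in the lowest bar.

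Signalling genes were called in both directions. Over all tested genes 7.38% of differences were positive and 5.11% negative, and 14.3% and 13% with pairing. Of 13 Wnt outputs, the difference was positive for Rnf43 and negative for Lef1, Notum, T and Ccnd1, while Axin2, a general Wnt target chosen after its values were seen, rose by 0.73 in each line with a difference of 0.01 (adjusted p = 0.988). The difference of Rnf43 was lost without any of 8 libraries, and that of T without the second untreated PDS5AB library. Of 17 ERK-linked genes, 3 differences were positive (Fos, Egr1 and Dusp5) and 3 negative (Etv1, Dusp6 and Spred1), against 4 and 6 with pairing. The negative count was 1 without the first untreated or the third treated PDS5AB library, without the second treated WAPL library, and with the 12 libraries alone, and the positive call of Egr1 was lost in 7 of 18 alternatives. Fos, an immediate early gene, rose from 4.15 ± 0.64 to 19.3 ± 1.15 CPM in PDS5AB and from 6.49 ± 1.32 to 13.5 ± 1.47 in WAPL. Dusp5, an ERK phosphatase, fell by 1.15 in WAPL and measured 0.10 in PDS5AB.

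The next lists stand beside 7.38% positive and 5.11% negative differences of all tested genes, and 14.3% and 13% with pairing. Of 14 Nodal and activin genes, 1 difference was positive and 2 were negative (4 and 3 with pairing). The positive one was lost without the second untreated or the third treated WAPL library and with the 12 libraries alone. Lefty1, a Nodal antagonist, measured 15.8, 14.5 and 13.8 CPM before and 25.2, 28.8 and 25.9 after auxin in PDS5AB. In WAPL it measured 11.9, 14.5 and 8.82 CPM before and 54.9, 61.7 and 34.9 after auxin. It rose in both lines and further in WAPL (difference -1.25 ± 0.26, adjusted p = 0.00137), and it fell by 1.53 in TIR1. Gdf3, a TGF-β family ligand, fell by 0.73 in PDS5AB beside a WAPL effect of 0.05. Of 11 BMP genes, Smad6, an inhibitor of BMP signalling, had a positive difference (0.84) and the ligand Bmp4 a negative one (-1.05), against 5 and 1 with pairing. Bmp4 fell by 0.72 in PDS5AB, and its WAPL effect of 0.33 was called with pairing only (adjusted p = 0.0142).

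Lineage lists had called differences in both directions, beside 7.38% positive and 5.11% negative of all tested genes, and 14.3% and 13% with pairing. Of 11 formative epiblast genes, Pou3f1 (Oct6) and Grhl2 had positive differences and Lef1 a negative one. Pou3f1 rose from 4.66 ± 0.64 to 12.2 ± 1.23 CPM in PDS5AB and measured 1.27 ± 0.46 and 1.10 ± 0.22 in WAPL, and Grhl2 rose by 0.95 against -0.16. Of 16 primitive streak genes, the difference was positive in 1 and negative in 2, or negative in 1 with DESeq2 and without the second untreated PDS5AB library. Gsc (goosecoid) fell from 5.54 ± 0.43 to 2.51 ± 0.03 CPM in WAPL and measured 0.63 (log2) in PDS5AB, a positive difference of 1.77. Of 16 endoderm genes 2 differences were positive (5 with pairing, and 1 negative). The positive count was 0 without the third untreated WAPL library, 4 without the first untreated PDS5AB library or the filter on low counts, and 1 with RLE scaling, with DESeq2 and without most of the other single libraries. The difference of Col4a1, a basement membrane collagen that overlaps Col4a2 on the other strand, was 0.65 and was lost in 13 of 18 alternatives. Of 12 neural genes 2 were negative (3 with pairing, and 1 positive), among them the adhesion molecule Nrcam (-1.01), lost without the first untreated library of either line.

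In the metabolic lists called differences stood beside 12.5% of all tested genes, or 27.3% with pairing. Of 22 cholesterol synthesis genes 1 difference was called (6 with pairing, all positive), Pmvk, which fell by 0.40 in WAPL and had a PDS5AB effect of 0.16 that was called with pairing only (adjusted p = 0.0479). Of 28 tested glycolysis and hypoxia entries 3 were positive and none negative, against 9 and 5 with pairing and 8 and 1 without the filter on low counts. Slc2a1, the glucose transporter GLUT1, held 236, 247 and 252 CPM before and 272, 309 and 304 after auxin in PDS5AB. In WAPL it held 407, 543 and 403 CPM before and 254, 320 and 249 after auxin. It fell in WAPL from a higher level to near that of PDS5AB cells (difference 0.98 ± 0.20, adjusted p = 0.00108), and its PDS5AB effect of 0.27 was not called here but was called as a rise with pairing (adjusted p = 1.81e-05) and in 3 of 18 alternatives in all. Egln3, an oxygen sensor, rose by 1.24 in PDS5AB, and Pfkfb4, which feeds glycolytic control, by 0.76. The difference of Egln3 was lost without the second untreated or the third treated WAPL library, and its WAPL effect of -0.30 was called with pairing (adjusted p = 0.0427) and without the filter on low counts.

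Of 21 cohesin genes 2 had a called difference, a share near the 12.5% of all tested genes. Stag2, a subunit on the X chromosome, measured 105, 117 and 123 CPM before and 83.8, 95.7 and 99.8 after auxin in PDS5AB. In WAPL Stag2 measured 96.0, 109 and 101 CPM before and 109, 141 and 116 after auxin. The shifts were small and in opposite directions, -0.30 ± 0.08 and 0.26 ± 0.08, both called, with a difference of -0.57 ± 0.12 (adjusted p = 0.00150). The WAPL rise was not called without the first untreated or the second treated WAPL library. The PDS5AB groups did not overlap, and the WAPL groups met at 109 CPM. Sgo1, which protects centromeric cohesin, fell by 0.60 and 0.21 (difference adjusted p = 0.00383), and its WAPL fall was called in 13 of 18 alternatives. With pairing 3 cohesin genes were positive and 7 negative, beside 14.3% and 13% of all tested genes, and without the first treated WAPL library 1 was positive and 4 were negative.

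Germline genes silenced by DNA methylation gave 3 positive and 2 negative differences of 20, against 8 and 4 with pairing. Over all tested genes 7.38% were positive and 5.11% negative, and 14.3% and 13% with pairing. Brdt, a testis bromodomain protein, rose from 2.67 ± 0.33 to 8.80 ± 0.46 CPM in PDS5AB and measured 3.97 ± 1.17 and 4.52 ± 0.30 in WAPL, and it rose by 1.23 in TIR1. Dazl, a germ-cell RNA-binding protein, rose by 0.87 in PDS5AB and 0.93 in TIR1 and measured -0.15 in WAPL. Its level in untreated WAPL cells, 29.1 ± 4.93 CPM, was above that in treated PDS5AB cells, 10.2 ± 1.10. Sycp3, of the synaptonemal complex, rose by 1.09 in WAPL against 0.11. Of 17 interferon and MHC genes 3 were positive and 1 negative, beside the same 7.38% and 5.11%, and 1 was positive without the third treated WAPL library. H2-K1, a class I molecule, rose from 33.8 ± 8.21 to 75.3 ± 11.1 CPM in PDS5AB and measured 21 ± 1.01 and 20.8 ± 3.10 in WAPL. Ddx58 (RIG-I) fell by 2.36 and 1.36, and Oas1a by 0.35 and 0.99, a difference lost without the first untreated or the third treated WAPL library. The PDS5AB fall of Oas1a was called in 15 of 18 alternatives. H2-K1 and Oas1a have close paralogs, so their counts are uncertain.

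Of the fibroblast list, besides the collagens, Thy1 fell by 1.78 in WAPL beside an effect of -0.19 in PDS5AB (difference 1.59). Pdgfrb had a difference of 0.64 that was lost in 11 of 18 alternatives. Aldh3a1, an AHR target, fell by 0.84 in PDS5AB and 1.77 in WAPL, with a difference lost without any of 8 libraries.

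The clustered protocadherins, cell-surface molecules whose promoter choice depends on CTCF and cohesin, had 7 negative differences and no positive one among 32 tested, with a median of -0.84, against 5.11% negative and 7.38% positive of all tested genes. In PDS5AB 6 rose and 7 fell, against 25.8% and 20.2%, and in WAPL 8 rose and 1 fell, against 17% and 15.8%. Pcdhga7 held 2.56, 2.02 and 2.46 CPM before and 2.83, 2.81 and 2.48 after auxin in PDS5AB. In WAPL it held 0.340, 0.599 and 0.630 CPM before and 1.65, 1.32 and 1.57 after auxin. Its difference was -1.34 ± 0.28 (adjusted p = 0.00135), again with WAPL cells starting low and approaching the PDS5AB level. Pcdhga2 rose from 1.86 ± 0.16 to 3.34 ± 0.31 CPM in WAPL and measured 3.25 ± 0.27 and 2.68 ± 0.21 in PDS5AB. Pcdhga1 had a difference of -0.85, lost without any of 5 libraries, and the call of Pcdhga4 was lost in 9 of 18 alternatives. Over the alternatives the list had 5 to 9 negative differences and 0 to 1 positive. The Pcdhga genes named here share their 3′ exons, and fragments assigned to several genes were dropped, so their counts come from the exons that are their own.

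Of 30 tested Hox genes, which pattern the body axis, 24 rose in PDS5AB and 13 in WAPL, none fell in either, and 4 differences were positive and none negative, with a median of 0.39. Over all tested genes 25.8% rose in PDS5AB and 17% in WAPL, and 7.38% had a positive difference. The positive count was 1 without the second untreated WAPL library and with the 12 libraries alone. It was 2 with DESeq2, without the first treated, the second treated, the second untreated or the third untreated PDS5AB library, and without the first untreated or the third treated WAPL library. Hoxd13 rose from 3.30 ± 0.19 to 8.56 ± 0.67 CPM in PDS5AB and from 0.71 ± 0.14 to 1.06 ± 0.16 in WAPL, with a difference lost in 13 of 18 alternatives. Its WAPL rise was called in 11 of the 18. Hoxc13 rose by 0.82 in PDS5AB, its difference of 0.52 was lost in 10 of 18, and its WAPL effect of 0.30 was not called here but was in 8 of 18 (with pairing, adjusted p = 0.00627). The Hox counts are low: the list summed to 49.8 to 56.3 CPM in the untreated libraries of both lines, 114 to 130 in treated PDS5AB and 73.1 to 93.2 in treated WAPL.

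By position, the X chromosome had the highest share of negative and the lowest share of positive differences among the 20 chromosomes. Of its 734 tested genes 73 (9.95%) had a negative difference and 11 (1.50%) a positive one, and pairing gave 20.2% and 4.77%. The 19 autosomes ranged from 2.83% to 6.74% negative and from 4.33% to 10.6% positive, and with pairing from 9.5% to 15.2% and from 9.75% to 20.5%. The median difference was -0.16 on X and between -0.05 and 0.07 on single autosomes. The X medians of the separate effects were -0.05 in PDS5AB and 0.07 in WAPL, beside -0.06 in TIR1, and the X median of the combined-line difference was -0.02. Genes on X with the called difference included Stag2, Nr0b1, Slc7a3 and Hs6st2.

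The median change of 468 X genes minus that of autosomal genes, limited to genes averaging 50 counts or more, was -0.0322, -0.0643 and -0.0619 in the 3 replicates of PDS5AB. It was 0.0613, 0.101 and 0.108 in the 3 replicates of WAPL. All PDS5AB values were negative and all WAPL values positive. No test is given, because the X chromosome was singled out on the same libraries. In the combined lines the values were 0.0327, -0.0137 and 0.0384 for PDS5AB-NIPBL and 0.0323, 0.0353 and 0.0227 for WAPL-NIPBL, and they overlapped. In the TIR1 line under auxin they were 0.0232, -0.0282 and -0.0758, which span the PDS5AB values. The X chromosome of male cells is present once, so a change in its copy number in part of a culture and a change in transcription cannot be told apart.

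**Figure D5:**
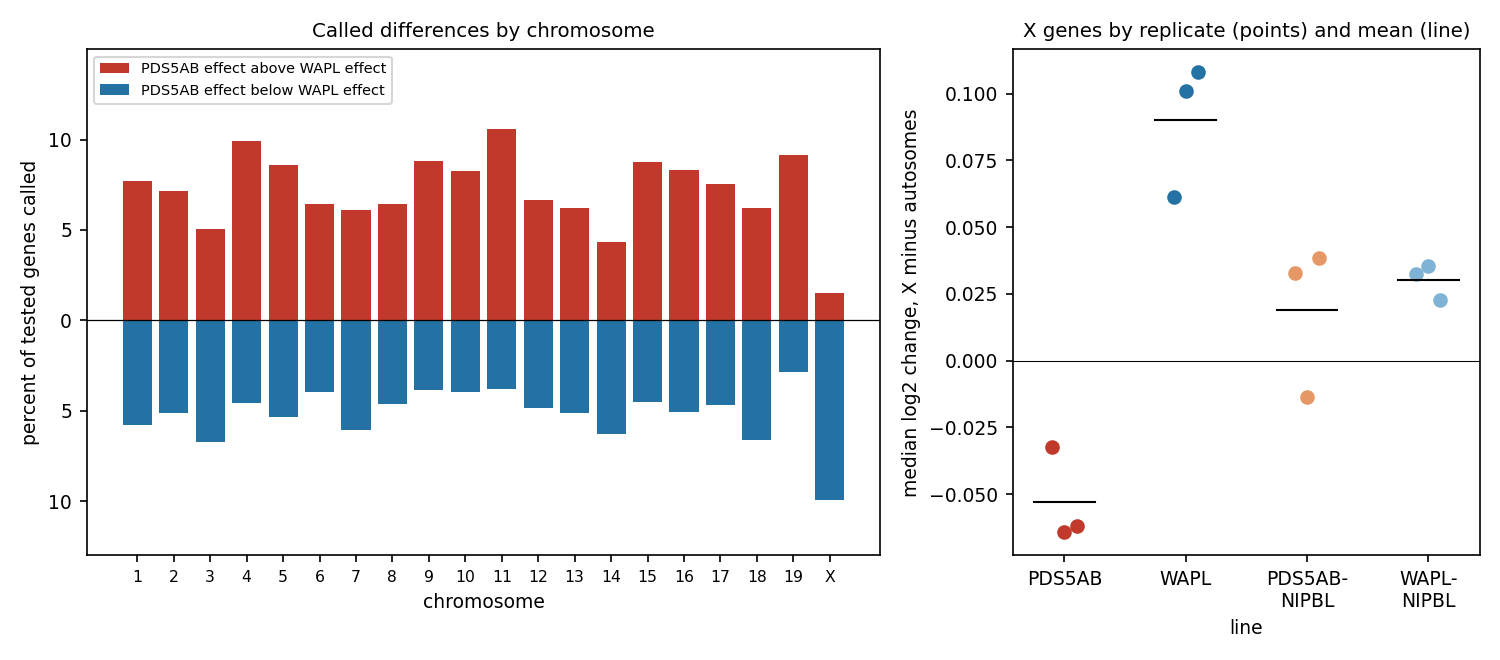
Left, percent of tested genes on each chromosome with a called difference, upward where the PDS5AB effect lay above the WAPL effect and downward where it lay below. Right, median log2 change of X genes minus that of autosomal genes for each replicate (points, 3 for each of the 2 lines and the 2 combined lines) and their mean (line). The X chromosome has 1.50% upward and 9.95% downward calls, and its replicate values are below 0 in PDS5AB and above 0 in WAPL.

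Called genes also lay beside each other. The next tested coding gene had a called difference of the same sign for 19.4% of coding genes with a positive one, against 9.29% positive among all tested coding genes, and for 13.1% of those with a negative one, against 6.11%. The longest run held 6 genes on chromosome 16, from Fam43a to Bdh1 (chr16:30599723-31458901), all with positive differences. Bdh1, a ketone body enzyme, rose by 0.56 in PDS5AB and fell by 0.31 in WAPL. Runs of 5 positive genes lay on chromosomes 10, 2 and 3. A run of 5 negative genes on chromosome 7, Zfp324 to Zbtb45, held Trim28, the co-repressor of KRAB zinc finger proteins. Trim28 fell by 1.32 in PDS5AB and 0.52 in WAPL. The genes of the runs were named because of their position, after their values were seen. Strand was not used in counting, and fragments matching overlapping neighbours were dropped. Genes with only the WAPL effect called and rising spanned over 100 kb in 29% of cases, against 10.7% of all tested genes and 14.3% of all called genes. The share was 14.2% for those falling with only the WAPL effect called, and 13.4% and 9.65% for those rising and falling with only the PDS5AB effect called.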

How the data were processed

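RNA-seq counts of 30 libraries in 10 groups were used, with the comparison resting on 12 of them. The deposited table holds fragment counts per gene, made with featureCounts 2.0.1 on paired-end alignments per the file headers, which name the GENCODE vM23 annotation. The header shows no strand option and no option to count fragments that match several places or genes, so strand was ignored and such fragments were dropped. Alignment used STAR 2.7.7a and trimming cutadapt, and deepTools is listed too, per the submitters' processing notes. The deposited gene length column (another kind of value, in bases) was not tested.

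Counts were fitted as deposited with edgeR 4.0.16 (R 4.3.3): genes were kept by filterByExpr with a minimum count of 10, libraries scaled by TMM (factors 0.95 to 1.13), 1 mean was fitted per group over all 30 libraries (20 residual degrees of freedom), and the quasi-likelihood F-test was adjusted by Benjamini-Hochberg over 19868 genes and called at 0.05. CPM values use TMM-scaled library sizes. Intervals at 95% came from a standard error of the absolute log2 fold change divided by the square root of F. Total counts of all libraries ran from 19632704 to 45539021, the biological coefficient of variation was 9.15%, and intervals cover the spread between libraries. Of 55421 genes in the table, 99.5% matched a symbol. No 2 libraries held identical values.

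Named genes averaged 50 counts or more over the 12 libraries, a called difference and groups that did not overlap in the line or lines called. Per direction they are the 5 with the largest difference among those called in 1 line whose other effect was bounded within 2-fold, the 3 largest of opposite sign, the 2 largest of the same sign for either line, and the 3 largest of each of 23 gene lists. Pds5a, Pds5b, Wapl and Rad21 were added. Other members of lists, and genes in runs of neighbours, were named after their values were seen. The comparison, members and lists were chosen with earlier results of these data known.

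Replicate numbers come from the labels. Deviations from group means correlated between same-numbered untreated and treated libraries of a line in all 6 pairs of both lines (r from 0.109 to 0.333). Other pairs had r from -0.292 to 0.0251. Deviations within a group cancel out, so positive values in same-numbered pairs push the others down. The numbers were used to pair samples in alternative fits, and the reported calls come from the fit without pairing. The alternatives tried were a fit of the 12 libraries alone, DESeq2 1.42.0, scaling by RLE, keeping all genes, 2 replicate blocks, a minimum of 2-fold and leaving out each of the 12 libraries. Promoters came from RefSeq (GRCm38.p6), with 12735 of the tested genes matched. Promoter letters for the CTCF core, the AHR core and the ATF4 element were sought on both strands.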

Additional observations from a re-analysis of the deposited data

Results flagged for a closer look

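The effects of auxin in the PDS5AB and WAPL lines differed by a test of the difference itself (edgeR's quasi-likelihood F-test, Benjamini-Hochberg adjusted) in 2481 genes. Among the named genes with called effects of opposite sign, the PDS5AB effect minus the WAPL effect was 4.21 (log2) for Lrrc15, 2.42 for Gata2 and 2.40 for Col1a1. It was -2.23 for Crocc2, -2.03 for Pou4f2 and -1.85 for Trh. Each of these 6 differences was called in all 18 alternatives that tested single genes. The PDS5AB effect of Gata2 was called in 16 of the 18, so its opposite signs were not called in all of them.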

How the results depend on the processing

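Pairing untreated and treated libraries of a line by number (replicate block within each line) raised the called differences to 5423, with 1895 genes called in PDS5AB alone, 951 in WAPL alone and 534 with opposite signs. A block on the number over all lines gave 3332. Requiring at least 2-fold left 741 called differences, 2574 PDS5AB effects, 1752 WAPL effects, and 327, 186 and 114 genes in the same 3 classes. Leaving out each library in turn gave 1974 to 2615 called differences, 8084 to 9536 PDS5AB effects, 5275 to 6739 WAPL effects, 809 to 1305 genes in PDS5AB alone, 440 to 581 in WAPL alone and 186 to 218 with opposite signs. The other counts stayed within 1.5 times of those reported: 2498 differences with RLE size factors, 2510 with no filter, 1803 with the 12 libraries alone and 2834 with DESeq2. Genes shared with the reported calls kept their sign in each of these settings.

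The share of positive differences went from 59.1% to 52.5% with pairing within lines, 48.4% without the third and 50.7% without the second treated WAPL library. It was 50.3% without the third and 50.5% without the first treated PDS5AB library, and 51.9% without the first untreated WAPL library. Of 83 named genes with a called difference, 64 were called in all 18 alternatives, 19 were lost in at least 1 of them, 14 of these in leave-one-out fits only, and none changed sign. The cause of these shifts was not tested. With 3 libraries a group, leaving 1 out leaves 2, and how depth limits the calls was not tested.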
